A study of Mus musculus with 5 samples.

Results

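Thrombospondin-1 (Thbs1), fibronectin (Fn1), connective tissue growth factor (Ctgf, also called Ccn2), Cyr61 (also called Ccn1), tenascin-C (Tnc), SPARC (Sparc), osteopontin (Spp1) and the plasminogen activators urokinase (Plau) and tissue plasminogen activator (Plat) encode secreted proteins of the extracellular matrix or proteases that act on it. These 9 genes were taken by name, with results of the comparison below already known, from 55147 gene symbols in the deposited table. Since they were chosen on TPM of this contrast, WT against C3G KO, their differences between the groups are given as a description, without a test. RNA sequencing compared mouse embryonic stem (ES) cells of the line E14Tg2a that were wild type (WT, 3 samples) with E14Tg2a cells that lack C3G (C3G KO, 2 samples). C3G, the product of Rapgef1, is an exchange factor that activates Rap GTPases at sites of adhesion. Both groups grew on gelatin in GMEM with serum and the cytokine LIF and received no treatment in this experiment. In the C3G KO cells a puromycin cassette under the EF1α promoter had been placed over exons 2 to 4 of the C3G gene by CRISPR, followed by puromycin selection, while the WT cells were the parent line. The labels do not say which clone each C3G KO sample came from, nor what separates the samples of a group, which the study calls independent, so p-values measure the spread between these samples, whatever its source.

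Matricellular proteins are secreted into the matrix but signal to cells more than they build fibres. They bind integrins, syndecans, CD36, CD44 or CD47 at the cell surface and change how firmly cells hold to their substrate. Fibronectin is the main adhesive glycoprotein that ES cells lay down on gelatin, osteopontin is a known product of undifferentiated ES cells, and Ctgf and Cyr61 are standard readouts of the co-activators YAP and TAZ, which bind DNA through TEAD factors. Urokinase and tissue plasminogen activator turn plasminogen into plasmin, a protease that degrades fibronectin and other matrix proteins.

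TPM, in which the reads of a transcript are set against its length and the total of the sample, were summed over the transcripts of each gene, so that a level is per length of transcript and can be set beside that of another gene. Read numbers are not kept by TPM, so the depth is unknown and no counting interval is given. Small RNAs took 62.9% to 67.2% of all TPM in WT and 77.8% and 69.6% in C3G KO samples 1 and 2. The levels below are therefore scaled TPM, in which each sample was divided by the median ratio of its genes to their mean over samples, with TPM as deposited beside them. The median difference of all 12518 tested genes, C3G KO minus WT on the log2(TPM + 1) scale, was 0.0052 after scaling and -0.55 as deposited. Rapgef1 itself was at 8.66, 8.45 and 8.73 scaled TPM in WT 1 to 3 and at 6.34 and 6.13 in C3G KO 1 and 2, a log2 difference of -0.41 (limma, Benjamini-Hochberg adjusted p = 0.00444) that was -0.11 (limma adjusted p = 0.240) after a correction for length and GC content. The sum over the gene includes exons outside the replaced ones and does not check the deletion. All 10 ES cell markers examined, among them Pou5f1, Sox2 and Nanog, were detected in both groups. Their summed level ran from 1694 to 2105 scaled TPM in WT and from 2595 to 2898 in C3G KO. Of the 10, 2 were called higher in C3G KO and 0 lower (limma, adjusted p under 0.05). Among all tested genes, 14.1% were called higher and 16.6% lower after scaling.

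Of the 9 genes, 8 lay lower in both C3G KO samples than in every WT sample after scaling, and all 9 did as deposited. The same held for 29.3% of all tested genes after scaling and 75.7% as deposited. The exception after scaling was Fn1. On the log2(TPM + 1) scale, Thbs1 and Cyr61 had the widest differences, Ctgf and Sparc intermediate ones and Spp1 a small one. Tnc, Plau and Plat were under 1 TPM in every sample, where the added 1 keeps differences on that scale small. The median log2 difference of the 9 genes was -0.61 after scaling and -0.92 as deposited. In bulk RNA, fewer cells of one type and less RNA per cell cannot be told apart.

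**Figure D1:**
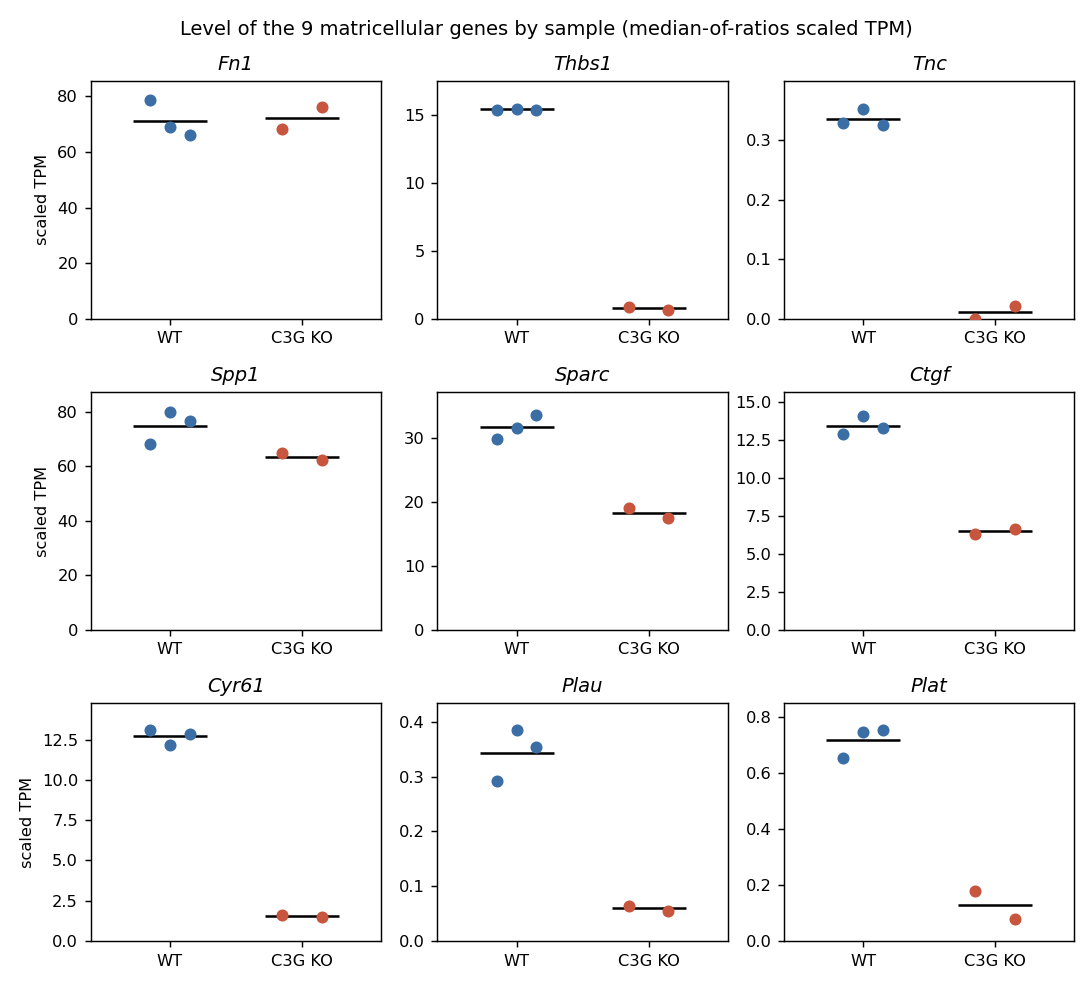
Scaled TPM (vertical axes, linear from 0, each gene on its own scale) of the 9 genes in the 3 WT samples (blue points) and 2 C3G KO samples (red points), with a line at each group mean. The groups overlap for Fn1 only; Thbs1 is near 15 in every WT sample and under 1 in both C3G KO samples.

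Fibronectin differs among its transcripts by cassette exons, and the transcripts below are shown because the 2 that carry most of the full-length Fn1 TPM differ by one of them. Fn1 (ENSMUSG00000026193) lies at chr1:71585520-71653200 on the minus strand of GRCm38. In GENCODE M21, 7 of its 17 transcripts are full length, and Fn1-201 (ENSMUST00000055226) is the only one of those that holds the 273-base EDB exon, its exon 25, at chr1:71613763-71614035. EDB encodes an extra fibronectin type III repeat and is part of the fibronectin of embryos and of remodelling tissue. In Fn1-214 (ENSMUST00000188894) the neighbouring exons join directly. Both keep EDA, a 270-base cassette exon at chr1:71603660-71603929. The sequences are in the sense of the transcript, with the EDB exon in capitals and 12 bases of the exon on either side in lower case.
Fn1-201: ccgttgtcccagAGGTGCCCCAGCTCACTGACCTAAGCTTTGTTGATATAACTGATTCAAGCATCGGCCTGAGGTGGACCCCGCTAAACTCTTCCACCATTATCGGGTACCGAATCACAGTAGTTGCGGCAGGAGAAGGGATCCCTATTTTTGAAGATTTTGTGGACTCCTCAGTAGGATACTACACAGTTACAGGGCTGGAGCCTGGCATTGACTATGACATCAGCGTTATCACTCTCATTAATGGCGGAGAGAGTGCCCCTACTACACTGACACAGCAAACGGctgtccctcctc
Fn1-214: ccgttgtcccagctgtccctcctc

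The total Fn1 level was 78.6, 68.9 and 66.1 scaled TPM in WT 1 to 3 and 68.4 and 76.1 in C3G KO 1 and 2. After scaling the groups overlapped, with means of 71.2 ± 6.54 (SD, n = 3) and 72.3 ± 5.43 (SD, n = 2). As deposited, Fn1 was at 104.89, 84.05 and 72.97 TPM in WT and at 42.34 and 68.96 TPM in C3G KO, so that both C3G KO samples lay below WT. The log2 difference was thus 0.02 after scaling and -0.67 as deposited, against -0.55 for the median of all genes as deposited, and it lay below 0 in 7 of the 16 alternative settings. No direction can be given for the total of Fn1.

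Within Fn1, the EDB transcript Fn1-201 took 32.8%, 32.9% and 33.7% of the TPM in WT 1 to 3 and 43.5% and 46.8% in C3G KO 1 and 2. Fn1-214, which skips EDB, took 24.9%, 28.4% and 25.5% in WT and 12% and 10.6% in C3G KO. The groups did not overlap for either transcript, one being higher and the other lower in C3G KO. How many of all transcripts show no overlap was not counted, so this is a description only. The mean share of Fn1-201 was 33.2% ± 0.509 (SD, n = 3) in WT cells and 45.2% ± 2.30 (SD, n = 2) in C3G KO, a difference of 12 percentage points (limma on the arcsine square root of the share, adjusted p = 0.309 over all transcripts, unadjusted 0.00159). The mean share of Fn1-214 was 26.2% ± 1.87 (SD, n = 3) against 11.3% ± 1.02 (SD, n = 2), a difference of -14.9 points (limma adjusted p = 0.148, unadjusted 0.000198). Neither difference passed the threshold of 0.05 after adjustment. Over all genes, 9 of 12826 transcripts passed it, or 0.0702%, and 1067 had an unadjusted p under 0.05.

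Among the full-length Fn1 transcripts alone, EDB was held by 52.7%, 50.2% and 52.7% of the TPM in WT and by 71.9% and 74.8% in C3G KO. EDA was held by 96.4% ± 0.690 (SD, n = 3) in WT and 95.4% ± 0.451 (SD, n = 2) in C3G KO. The groups stood far apart for EDB, while for EDA they lay next to each other, without overlap. In scaled TPM, Fn1-201 went from 25.8, 22.7 and 22.3 in WT to 29.8 and 35.6 in C3G KO, and Fn1-214 from 19.5, 19.5 and 16.9 to 8.23 and 8.06. As deposited, the groups overlapped for Fn1-201, with 34.45, 27.63 and 24.62 TPM in WT and 18.43 and 32.26 TPM in C3G KO. They did not for Fn1-214, with 26.07, 23.84 and 18.61 TPM against 5.09 and 7.3 TPM. The higher level of Fn1-201 in C3G KO was thus seen after scaling only. These transcripts share nearly all of their sequence, so how reads were divided between them is an estimate with an error that the table does not give. The comparison of transcript shares was chosen after seeing the data.

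**Figure D2:**
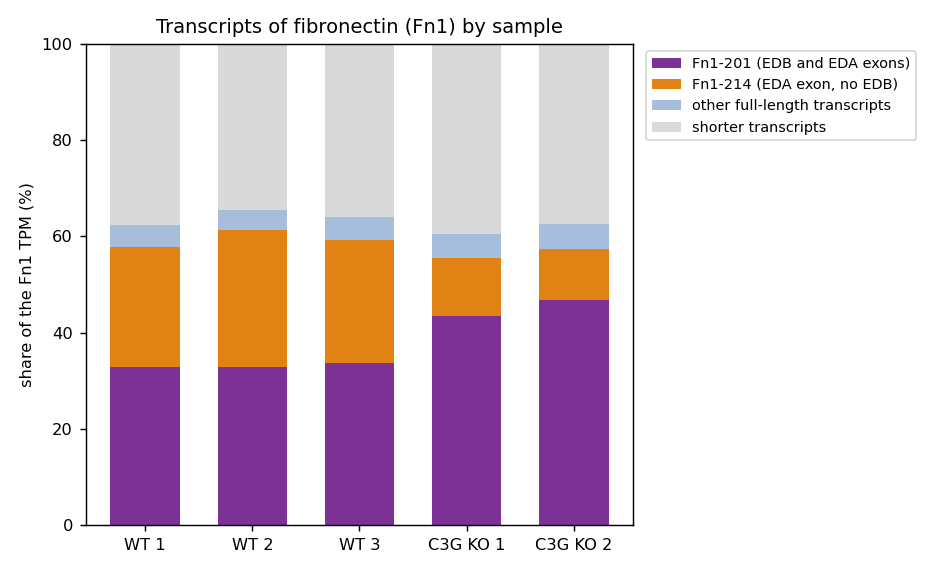
Share of the Fn1 TPM (vertical axis, percent) in each sample (horizontal axis), stacked by transcript: the EDB transcript Fn1-201, Fn1-214 without EDB, other full-length transcripts and shorter ones. Fn1-201 takes 32.8% to 33.7% of it in WT against 43.5% and 46.8% in C3G KO, Fn1-214 is smaller in C3G KO, and the full-length transcripts together take 60.5% to 65.4% in all samples.

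Thrombospondin-1 binds CD47, CD36 and integrins and activates latent TGF-beta. On the log2(TPM + 1) scale its gene showed the widest difference of the 9. Thbs1 (ENSMUSG00000040152, chr2:118111876-118127133, plus strand) was at 15.4, 15.5 and 15.4 scaled TPM in WT 1 to 3 and at 0.873 and 0.651 in C3G KO 1 and 2. The WT samples were nearly equal and both C3G KO samples were far below them. The group means of 15.4 ± 0.0470 (SD, n = 3) and 0.762 ± 0.157 (SD, n = 2) differ 20.2-fold, or by -3.22 on the log2(TPM + 1) scale, which understates the change of a gene at low level. As deposited, the values were 20.54, 18.87 and 16.99 TPM against 0.54 and 0.59 TPM, or 33.3-fold. Thbs1 passed the filter on low values through its WT samples only.

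Tenascin-C (Tnc, ENSMUSG00000028364, chr4:63959785-64047015, minus strand), an anti-adhesive hexameric glycoprotein of embryonic and wounded tissue, was near the limit of the table in all samples. It was listed at 0.44, 0.43 and 0.36 TPM in WT and at 0 and 0.02 TPM in C3G KO, with values rounded to 2 decimals. The groups did not overlap, and no fold is given.

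Osteopontin (Spp1, ENSMUSG00000029304, chr5:104435118-104441050, plus strand), an acidic ligand of alpha-v integrins and CD44, had the highest WT mean of the 9 genes. It was at 68.2, 79.8 and 76.5 scaled TPM in WT and at 64.7 and 62.3 in C3G KO. The gap between the lowest WT and the highest C3G KO sample was smaller than the spread among WT samples. The C3G KO mean of 63.5 ± 1.72 (SD, n = 2) was 84.9% of the WT mean of 74.8 ± 5.99 (SD, n = 3), a log2 difference of -0.23 that was -0.92 as deposited. Its main transcript, Spp1-201, took 90.7% ± 0.889 (SD, n = 3) of the Spp1 TPM in WT against 87.7% ± 0.513 (SD, n = 2) (limma adjusted p = 0.648).

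SPARC (Sparc, ENSMUSG00000018593, chr11:55394500-55423183, minus strand), a collagen-binding protein that loosens cell attachment, was at 29.9, 31.6 and 33.7 scaled TPM in WT and at 19.1 and 17.5 in C3G KO. Both C3G KO samples were lower than every WT sample by more than the spread within either group. The means of 31.7 ± 1.87 (SD, n = 3) and 18.3 ± 1.11 (SD, n = 2) differ 1.73-fold after scaling and 2.78-fold as deposited. Sparc-201 took 50.8% ± 2.39 (SD, n = 3) and 58.3% ± 7.67 (SD, n = 2) of the Sparc TPM (limma adjusted p = 0.677).

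The CCN proteins Ctgf and Cyr61 bind integrins and heparan sulphate, and their levels were alike in WT but not in C3G KO. Ctgf (ENSMUSG00000019997, chr10:24595442-24598683, plus strand) was at 12.9, 14.1 and 13.3 scaled TPM in WT and at 6.34 and 6.60 in C3G KO. Cyr61 (ENSMUSG00000028195, chr3:145646976-145649981, minus strand) was at 13.1, 12.2 and 12.8 in WT and at 1.62 and 1.49 in C3G KO. Neither gene's groups overlapped, and samples of a group were close together. The mean went from 13.4 ± 0.610 (SD, n = 3) to 6.47 ± 0.187 (SD, n = 2) for Ctgf, 2.08-fold, and from 12.7 ± 0.456 (SD, n = 3) to 1.55 ± 0.0892 (SD, n = 2) for Cyr61, 8.18-fold. As deposited, the folds were 3.30 for Ctgf and 13.2 for Cyr61.

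RefSeq promoter sequences (GRCm38.p6, 250 bases before to 50 after a start) were at hand for 4 of the 9 genes, Cyr61, Tnc, Spp1 and Sparc. The 250 bases before each start were searched for the TEAD letters GGAATG and the AP-1 letters TGANTCA on both strands. TATAAA was searched on the strand of the gene, and the CArG box as CCWWWWWWGG, where W is A or T. The TEAD letters were found only in Cyr61, 103 bases before its start, on the opposite strand as CATTCC. These letters stand in 12.6% of all 27025 promoters of the same length. The AP-1 letters (6.87% of all promoters) and the CArG box (1.4%) were in none of the 4. TATAAA (8.12%) stood 25 bases before the start of Cyr61 and 126 and 205 bases before the start sites of Tnc. For Spp1 it stood 211 bases before one start site and was absent before another, and Sparc had no match. A match is a description of the letters and not a site, and its absence says only that the letters are not in this window. The 250 bases before the start are shown for Cyr61 (chr3:145649986-145650235, minus strand), with the TEAD letters in capitals, and for Spp1 (chr5:104434861-104435110, plus strand), which has none and whose level differed least of the 4.
Cyr61: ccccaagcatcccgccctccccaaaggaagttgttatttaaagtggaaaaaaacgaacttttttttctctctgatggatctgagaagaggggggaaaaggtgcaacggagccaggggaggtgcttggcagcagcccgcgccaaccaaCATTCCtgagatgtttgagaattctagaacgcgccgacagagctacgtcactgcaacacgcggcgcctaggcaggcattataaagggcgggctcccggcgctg
Spp1: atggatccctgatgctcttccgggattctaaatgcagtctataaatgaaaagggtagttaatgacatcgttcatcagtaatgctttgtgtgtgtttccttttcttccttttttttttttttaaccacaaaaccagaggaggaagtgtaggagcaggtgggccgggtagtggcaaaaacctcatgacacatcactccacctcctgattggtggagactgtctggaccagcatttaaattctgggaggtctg

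The plasminogen activators were both low in these cells. Plau (ENSMUSG00000021822, chr14:20836660-20843385, plus strand), which acts at the cell surface, was at 0.292, 0.385 and 0.353 scaled TPM in WT and at 0.0647 and 0.0552 in C3G KO. Plat (ENSMUSG00000031538, chr8:22757727-22782844, plus strand), which acts mainly on fibrin, was at 0.652, 0.746 and 0.752 in WT and at 0.178 and 0.0773 in C3G KO. Each lay lower in both C3G KO samples, with ratios of means of 5.73 for Plau and 5.62 for Plat. On the log2(TPM + 1) scale the differences were only -0.34 and -0.61, since the pseudocount of 1 exceeds the values. As deposited, C3G KO values were 0.04 and 0.05 TPM for Plau and 0.11 and 0.07 TPM for Plat, a few steps of the table's rounding.

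In WT the order of the mean levels was Spp1, Fn1, Sparc, Thbs1, Ctgf, Cyr61, Plat, Plau and Tnc. Spp1 and Fn1 did not differ beyond their spread, nor did Ctgf and Cyr61 or Plau and Tnc. In C3G KO it was Fn1, Spp1, Sparc, Ctgf, Cyr61, Thbs1, Plat, Plau and Tnc, so that Thbs1 moved from the fourth to the sixth place, and no neighbours in this order overlapped between the samples. Of the 9 genes, 6 passed the filter on low values (Thbs1 through WT only) and 5 were at 1 TPM or more in both C3G KO samples.

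**Figure D3:**
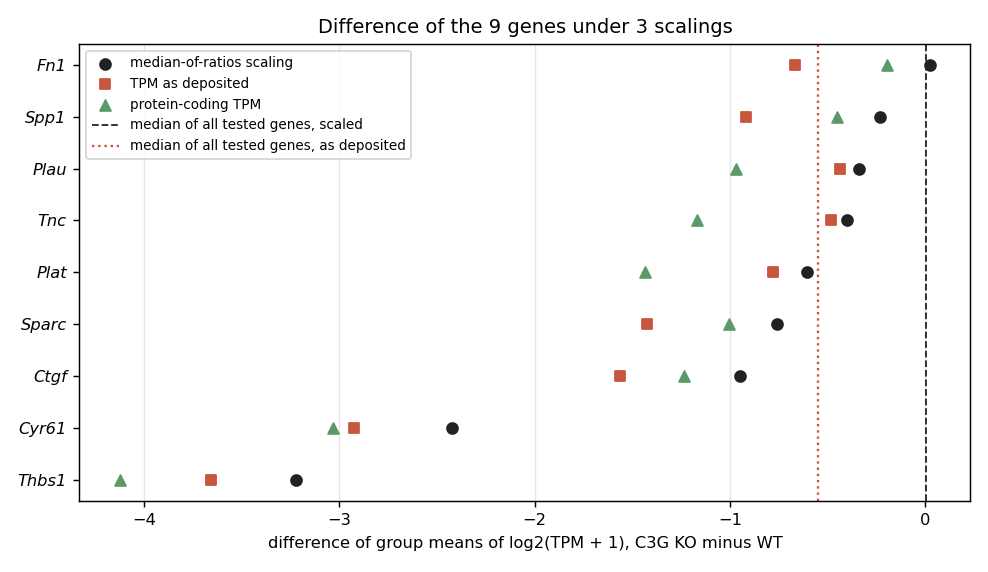
Difference of group means of log2(TPM + 1), C3G KO minus WT (horizontal axis), for the 9 genes after median-of-ratios scaling (circles), as deposited (squares) and for TPM rescaled over protein-coding genes (triangles), with the medians of all tested genes as vertical lines. Fn1 lies at 0.02 after scaling and at -0.67 as deposited, while Thbs1 and Cyr61 lie far below both medians under all 3 scalings; Tnc and Plau as deposited lie above the median of all genes because the pseudocount exceeds their TPM.

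Over the 5 samples, the tested genes whose scaled profile lay nearest that of each of the 6 genes that passed the filter were found by the root mean square distance of log2 levels centred on the gene mean. For Thbs1 these were Grb10 (0.11), Krt8 (0.12) and Acta1 (0.13), with 0 genes within 0.1. For Cyr61 they were Krt19, Cald1 and Flnc, with 4 genes within 0.1. Profiles like those of the other 4 were common, with 179 genes within 0.1 of Ctgf, 253 of Sparc, 1141 of Spp1 and 1559 of Fn1. The nearest were Camk2d, Errfi1 and Zbtb7b for Ctgf, Mdp1, Crip2 and Nucb1 for Sparc, Becn1, Zfp52 and Kptn for Spp1, and Srpk2, Gm43143 and Scaf4 for Fn1. The distance includes the difference between WT and C3G KO, the contrast on which the genes were chosen. A near gene is thus one with a similar log2 difference, such as -3.22 for Thbs1 and -3.12 for Grb10. For Cyr61 and Krt19 the log2 differences were -2.42 and -2.44. Whether near genes share regulation was not tested.

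Related genes outside the 9 were tested across all genes with limma (two-sided, Benjamini-Hochberg adjusted over all 12518, threshold 0.05). SDs are over 3 WT and 2 C3G KO samples throughout. Over all genes 16.6% were called lower and 14.1% higher after scaling, and 56.8% and 1.45% as deposited. The list medians below are over all tested genes of a list and so include genes that met the filter through WT samples only. Genes named from the lists were picked in part for the size of their change. Of 40 relatives, in the thrombospondin, tenascin, SPARC, CCN, osteopontin and fibulin families and among other secreted matrix glycoproteins such as fibrillins, emilins and Mfge8, 10 were tested and 30 were below the filter. In C3G KO 6 fell, 1 rose and 3 did not pass, with a median log2 difference of -0.45 beside 0.0052 for all genes. As deposited 8 fell and 0 rose. Of the 5 at 1 TPM or more in both C3G KO samples, 3 fell. The fibulin Efemp2, needed for elastic fibres, went from 3.35 ± 0.287 (SD, n = 3) to 1.32 ± 0.278 (SD, n = 2) scaled TPM (log2 difference -0.91, SE 0.10, limma adjusted p = 0.00200). In C3G KO it was at 0.94 and 1.02 TPM as deposited, so Efemp2 met the filter through WT samples only. The SPARC relative Fstl1 fell from 20.4 ± 0.616 (SD, n = 3) to 11.1 ± 0.358 (SD, n = 2) (limma adjusted p = 0.000557), and Mfge8, a ligand of alpha-v integrins, fell from 20.7 ± 1.22 to 14.4 ± 1.71 (limma adjusted p = 0.0117). Fibulin-1 (Fbln1), which binds fibronectin, rose after scaling, from 2.98 ± 0.233 (SD, n = 3) to 4.53 ± 0.389 (SD, n = 2) (limma adjusted p = 0.00887), but had a log2 difference of -0.071 as deposited (limma adjusted p = 0.774). Without C3G KO 2, neither Mfge8 (log2 difference -0.38, limma adjusted p = 0.0549) nor Fbln1 (0.40, limma adjusted p = 0.0507) passed.

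Receptors for these proteins were mostly lower in C3G KO. Of 22 listed, 15 were tested, 11 fell, 0 rose and 4 did not pass, with a median log2 difference of -0.59, and 8 of the 12 at 1 TPM or more in both C3G KO samples fell. As deposited 13 fell and 0 rose. The subunits of the main fibronectin receptor were both among them. Itga5 was at 10.1, 9.41 and 8.47 scaled TPM in WT and at 4.43 and 5.06 in C3G KO (log2 difference -0.85, SE 0.09, limma adjusted p = 0.00181). Itgb1 was at 37.6, 39.8 and 39.5 against 21.4 and 23.7 (log2 difference -0.76, limma adjusted p = 0.00123). Neither subunit's groups overlapped, unlike those of the total of Fn1.

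Itga3, an integrin subunit that binds laminins and thrombospondin-1, had the widest difference of the list on the log2(TPM + 1) scale, from 25.2 ± 0.637 (SD, n = 3) to 3.40 ± 0.393 (SD, n = 2) scaled TPM (log2 difference -2.58, SE 0.08, limma adjusted p = 3.38e-05). Itgav, a subunit of receptors for osteopontin and fibronectin, fell from 5.76 ± 0.232 (SD, n = 3) to 3.34 ± 0.0183 (SD, n = 2) (limma adjusted p = 0.00129). The hyaluronan and osteopontin receptor Cd44 was under 1 scaled TPM in every sample and passed the filter through WT samples only. Its means of 0.813 ± 0.0793 (SD, n = 3) and 0.0871 ± 0.0139 (SD, n = 2) differ 9.33-fold, a wider ratio than the 7.42-fold of Itga3, and its log2 difference of -0.74 (limma adjusted p = 0.00235) is held small by the pseudocount. Cd36 was below the filter. For Cd47, a receptor of thrombospondin-1, the groups overlapped, with 1.59, 1.80 and 1.75 scaled TPM in WT and 2.38 and 1.73 in C3G KO (limma adjusted p = 0.290), and the log2 difference was 0.16 after scaling and -0.29 as deposited. The syndecan Sdc4, a co-receptor for fibronectin, was at 21.2 ± 1.77 (SD, n = 3) and 19.9 ± 2.63 (SD, n = 2), did not pass after scaling (limma adjusted p = 0.579) and was lower as deposited (log2 difference -0.75, limma adjusted p = 0.0130).

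Around the plasminogen activators, 11 of 18 listed genes were tested, of which 7 fell and 2 rose after scaling, with a median log2 difference of -0.48. All 7 that fell were among the 10 at 1 TPM or more in both C3G KO samples, and as deposited 9 fell and 1 rose. The urokinase receptor Plaur was at 21.0, 21.4 and 22.6 scaled TPM in WT and at 6.29 and 5.65 in C3G KO (log2 difference -1.70, SE 0.07, limma adjusted p = 0.000120), so that per length of transcript the receptor was far above its ligand Plau in both groups. The inhibitor Serpine2 fell from 9.34 ± 0.431 (SD, n = 3) to 6.44 ± 0.908 (SD, n = 2) (limma adjusted p = 0.0120) and the membrane protease St14 from 15.5 ± 0.00459 to 5.28 ± 0.238 (limma adjusted p = 0.000121). The glycolytic enzyme and plasminogen receptor Eno1 rose after scaling, from 363 ± 13.3 (SD, n = 3) to 541 ± 85.7 (SD, n = 2) (log2 difference 0.57, limma adjusted p = 0.0224). As deposited the log2 difference of Eno1 was -0.13 (limma adjusted p = 0.657). Its call was lost without WT 1 (log2 difference 0.55, limma adjusted p = 0.0577), WT 2 (0.55, limma adjusted p = 0.0881) or C3G KO 2 (0.40). Without C3G KO 2, 4 genes of the list fell rather than 7. The other gene that rose was A2m, a broad protease inhibitor, named here after its values were seen. It passed the filter through C3G KO samples only and was at 0.464, 0.393 and 0.435 scaled TPM in WT and at 1.70 and 1.82 in C3G KO (log2 difference 0.95, limma adjusted p = 0.000686), and it rose as deposited too (log2 difference 0.61, limma adjusted p = 0.0017). Plasminogen itself (Plg) was below the filter and was listed at 0.01, 0 and 0 TPM in WT and at 0 in both C3G KO samples, so that the groups overlapped.

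Of 28 genes that assemble, modify or cut matrix, 21 were tested, 14 fell, 0 rose and 7 did not pass, with a median log2 difference of -0.45. As deposited 19 fell and 0 rose. Of the 12 at 1 TPM or more in both C3G KO samples, 6 fell. The membrane protease Mmp14 fell from 6.06 ± 0.291 (SD, n = 3) to 1.04 ± 0.141 (SD, n = 2) scaled TPM (log2 difference -1.79, limma adjusted p = 0.000120). In C3G KO it was at 0.58 and 1.03 TPM as deposited, so Mmp14 met the filter through WT samples only. The collagen chaperone Serpinh1 fell from 26.0 ± 2.18 to 12.6 ± 0.95 (limma adjusted p = 0.00109). Bmp1, which trims procollagens, went from 3.44 ± 0.0901 (SD, n = 3) to 0.182 ± 0.0393 (SD, n = 2) (limma adjusted p = 8.20e-05), but it passed the filter through WT samples only. Bmp1 lies on chromosome 14 from 70474558 to 70520234, and all 24 other tested genes that start within 2 Mb of it also fell, with a median log2 difference of -1.13. Around Plau, on the same chromosome, 4 of 30 such genes fell and 3 rose.

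Other textbook targets of YAP, TAZ and TEAD, the group to which Ctgf and Cyr61 belong, had the lowest median of the lists. Of 23 listed, 19 were tested, 16 fell, 0 rose and 3 did not pass, with a median log2 difference of -0.93 after scaling and -1.24 as deposited, when 19 fell. Of the 10 at 1 TPM or more in both C3G KO samples, 9 fell. The angiomotins Amotl1 and Amotl2, which bind YAP, fell from 8.75 ± 0.515 to 2.11 ± 0.107 and from 16.8 ± 0.396 to 5.77 ± 0.442 scaled TPM (SD, n = 3 and n = 2, limma adjusted p = 0.000121 and 0.000173). The phosphatase Ptpn14 fell from 16.6 ± 1.07 to 4.80 ± 0.0392 (limma adjusted p = 0.000143) and the receptor kinase Axl from 3.21 ± 0.608 to 0.385 ± 0.0181 (limma adjusted p = 0.000601), Axl having passed the filter through WT samples only. Ankrd1 was below the filter, at 0.711 ± 0.119 scaled TPM (SD, n = 3) in WT against 0.0327 ± 0.000557 (SD, n = 2).

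In the TGF-beta pathway, whose latent ligand thrombospondin-1 activates, 15 of 22 listed genes were tested, 10 fell, 0 rose and 5 did not pass, with a median log2 difference of -0.43. As deposited 13 fell and 0 rose. Of the 10 at 1 TPM or more in both C3G KO samples, 7 fell. The co-receptor Eng fell from 10.1 ± 0.674 (SD, n = 3) to 5.39 ± 0.703 (SD, n = 2) scaled TPM (limma adjusted p = 0.00227) and the mediator Smad3 from 3.08 ± 0.288 to 1.57 ± 0.212 (limma adjusted p = 0.00414). Smad3 was at 0.88 and 1.56 TPM as deposited in C3G KO, so it met the filter through WT samples only. Tgfb1, which passed the filter through WT samples only, was at 1.82, 1.84 and 1.16 scaled TPM in WT and at 0.921 and 0.927 in C3G KO, which did not pass after scaling (log2 difference -0.43, limma adjusted p = 0.0602) and did as deposited (log2 difference -0.79, limma adjusted p = 0.000199). Without WT 3, whose value was the lowest of WT, Tgfb1 passed (log2 difference -0.56, limma adjusted p = 0.00967), as it did with a replicate block (limma adjusted p = 0.0123). With the length and GC correction, or without C3G KO 1, 6 genes of this list fell rather than 10, and 3 did with that correction and a replicate block. The lists share some genes: Plaur and Lrp1 stand in both the receptor and plasminogen lists, and Tgfb2 in the YAP-TEAD and TGF-beta lists.

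**Figure D4:**
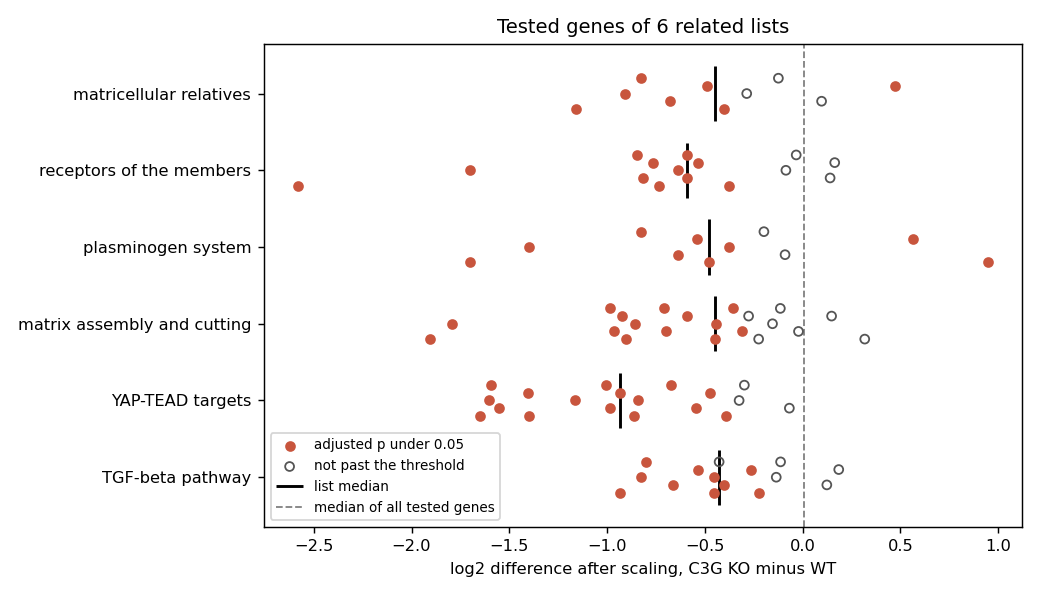
Log2 difference after scaling, C3G KO minus WT (horizontal axis), of the tested genes in 6 lists of related genes (rows). Filled points passed limma at an adjusted p under 0.05 and open points did not. Black bars are list medians, which include genes that met the filter through WT samples only. The dashed line is the median of all tested genes. List medians run from -0.93 for YAP-TEAD targets to -0.43 for the TGF-beta pathway.

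Summed levels of markers of other cell types differed between the groups, each sum resting on a few genes. Of 10 fibroblast markers 2 were tested and both fell, and the sum was 4.07 to 4.84 scaled TPM in WT and 1.99 to 2.0 in C3G KO, where Lum was at 0. Of 10 trophoblast markers 3 were tested and 2 fell, with a sum of 6.34 to 6.54 in WT and 1.39 to 1.79 in C3G KO and Psg17 at 0 in every sample. No trophoblast marker reached 1 TPM in a C3G KO sample, so the 3 tested met the filter through WT samples only. Of 8 mesoderm markers 2 were tested and both fell, with a sum of 5.19 to 6.17 against 1.62 to 2.52. Of the fibroblast and of the mesoderm markers, 1 each reached 1 TPM in any C3G KO sample, against 2 each in WT. After scaling, 16.6% of all tested genes were called lower and 14.1% higher. These 3 sums were lower in C3G KO, as were all of the 9 genes but Fn1 after scaling. Of 14 markers of extraembryonic endoderm 2 were tested and both rose, with a sum of 5.66 to 5.87 in WT and 11.0 to 14 in C3G KO. Of 8 neural markers 4 were tested, 1 fell and 1 rose, and the sum was 20.6 to 22.2 against 27.2 to 29.3, with Neurog2 at 0 in every sample. The part of such cells in the differences of the 9 genes and the related lists was not tested.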

How the data were processed

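Total RNA of 3 WT and 2 C3G KO samples was sequenced, and the authors deposited TPM for 142647 Ensembl transcripts, rounded to 2 decimals and summing to between 999998.21 and 1000000.94 per sample. The submitters' processing notes name bcl2fastq 2.20, FastQC 0.11.7, STAR 2.5.1b, RSEM 1.2.31 and the builds mm10 and GRCm38, without roles. Read numbers are not kept, so depth is unknown and the number of samples limits the precision. Transcripts were matched to GENCODE M21 (GRCm38; 1123 were not matched), and TPM were summed by gene symbol. Genes with at least 1 TPM in at least 2 samples were tested (12518).

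WT and C3G KO were compared with limma 3.58.1 (R 4.3.3) on log2(TPM + 1) after median-of-ratios scaling, with a mean-variance trend, two-sided, with Benjamini-Hochberg adjustment and a threshold of 0.05. The prior degrees of freedom were 3.11 after scaling and infinite as deposited, where each gene's own spread has no weight in its p-value. Transcript shares were tested with limma on the arcsine square root for genes of at least 5 TPM in every sample and transcripts with a mean share of 5% to 95%. An adjusted p is over all genes or transcripts tested. The procedure was tested on simulated data first.

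The 9 genes, the lists and the rule for named genes were chosen with earlier results of these data known, and the transcript shares were added after seeing the data. Genes of a list that passed the threshold with a mean of at least 2 TPM in the higher group were ranked by log2 difference. The 3 largest rises and 3 largest falls among them, or fewer where fewer passed, were named. A set of receptors, inhibitors and ligands was named whatever their values. Of the genes this rule names, 1 is not reported here. Alternatives were TPM as deposited, protein-coding TPM, quantile normalization, a pseudocount of 0.1 or 5, leaving out the filter, raising it to 5 TPM, no trend, a length and GC correction (span 0.5, median values for 77 symbols without a length), a replicate block, both together, and each sample left out. Promoters are from RefSeq. Python 3.11.15 was used with pandas 2.3.3 for tables and with matplotlib 3.10.9 for plots.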

Additional observations from a re-analysis of the deposited data

How the results depend on the processing

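The direction of 8 of the 9 genes, all but Fn1, stayed below 0 in every alternative run for them, and Fn1 ranged from -0.67 to 0.27. The size depended on scaling and pseudocount: the median of the 9 genes was -0.92 as deposited, -1.17 for protein-coding TPM, -1.47 with a pseudocount of 0.1 and -0.22 with a pseudocount of 5, with 3 of the 9 under 1 TPM in every sample, and it ran from -0.67 to -0.54 with each sample left out. Quantile normalization, the filter of 5 TPM and the length and GC corrections keep 6 of the 9 genes, so no median over all 9 could be formed there. With C3G KO 1 or 2 left out, the remaining sample is assumed to vary like the WT samples. Depth is unknown, which limits what can be said of Tnc, Plau and Plat.

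The split of calls over all genes differed between settings: 2083 fell and 1760 rose after scaling, 7109 and 181 as deposited, 3753 and 702 for protein-coding TPM, and 1348 and 1122 with the filter of 5 TPM. With each sample left out, 1323 to 1844 genes fell and 890 to 1559 rose, fewest without WT 2, where 1323 fell and 890 rose. Without C3G KO 1, 1348 fell and 906 rose, and 964 rose without C3G KO 2. With the filter of 5 TPM, which tests fewer genes, the falls were 2 of the matricellular relatives, 6 of matrix assembly and cutting, 10 of the YAP-TEAD targets and 5 of the TGF-beta pathway. In the TGF-beta pathway 6 fell with the length and GC correction and 6 to 9 with a sample left out, 6 without C3G KO 1. Of the plasminogen system 4 to 7 fell with a sample left out, 4 without C3G KO 2. The cause of these shifts was not tested. Of 423 alternative values of the 27 tested named genes outside the 9, Rapgef1 included, 400 kept direction and side of the threshold. Of the called genes, Fbln1 and Eno1 turned, to -0.071 and -0.13 as deposited; of those not called, Cd47 turned to -0.29 as deposited and Sdc4, which ran from -0.21 to 0.043 with a sample left out, turned without C3G KO 2. Eno1 lost its call in 7 other alternatives. The share of Fn1-201 differed by 10.4 to 13.6 points and that of Fn1-214 by -15.7 to -13.9 points with a sample left out, with limma adjusted p from 0.351 to 0.820 and from 0.263 to 0.610.

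The replicate numbers 1 and 2 occur in both groups, but nothing says that they mark a shared day or culture, and the deviations of same-numbered samples correlated at -0.18 for number 1 and 0.18 for number 2. These numbers are from the sample titles, while the library name of C3G KO 2 holds the number 3. With the number in the title as a block, 1816 genes fell and 1489 rose, the median of the 9 genes was -0.59, and the limma adjusted p was 0.663 for both Fn1 transcripts. Of the named genes, the block ended the call of Eno1 (limma adjusted p = 0.0591) and gave one to Tgfb1 (limma adjusted p = 0.0123). The log2 difference of Eno1 was 0.60 with the block and 0.57 without it. With the block and the length and GC correction together, 1342 genes fell, and 3 of the TGF-beta pathway, and the calls of Smad3 (limma adjusted p = 0.0508) and Rapgef1 (limma adjusted p = 0.476) were lost.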
